A study of Mus musculus with 4 samples.

Results

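The respiratory chain genes described here are the nuclear and mitochondrial genes that encode complexes I to V of oxidative phosphorylation, with the assembly factors and pseudogenes that share their symbols. Members were taken by symbol: names that begin with Nduf, Uqcr, Atp5 or Cox4 to Cox8, the genes Sdha to Sdhd and Cyc1, and the mitochondrially encoded mt-Nd, mt-Co, mt-Cytb and mt-Atp genes. This gave 104 of the 13792 genes listed in each library, 91 of them nuclear and 13 mitochondrial. A minimum value of 1, reached in either library, left 12283 genes (the kept genes), and all 104 members were among them.

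The study infected naive B cells from mice of the inbred strain C57BL/6 with a retrovirus and cultured them with antibodies to IgM and CD40, which stand in for antigen and T cell help. The control library (RVKM-Empty) came from cells given the virus without an insert, and the Ascl2 library (RVKM-Ascl2) from cells given the same virus carrying Ascl2, a basic helix-loop-helix transcription factor. Each group is 1 library. Replicate error therefore cannot be estimated, no difference below has a replicate check, and no p-value was computed. The labels do not say how many mice were used, how long the cells were cultured or whether infected cells were purified. The chromatin samples of the series, an input and an Ascl2 immunoprecipitation from germinal centre B cells, were not analysed here.

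The values are abundances scaled for depth and apparently for gene length. They summed to 750692 in the control library and 763932 in the Ascl2 library. The files do not give the number of reads behind a value, so counting error cannot be stated. Ascl2 itself was 0.0809 in the control library and 29.4 in the Ascl2 library, the direction its label gives. All 8 B cell markers examined were present at 97.7 or more in both libraries. None of 7 T cell markers was listed in the tables used here, and 4 of 8 myeloid markers were listed with summed values of 23.2 and 29.4. Because these are bulk samples, fewer cells with a transcript and less of it per cell cannot be told apart. Differences are given as the log2 ratio, the log2 of the Ascl2-library value plus 1 divided by the control value plus 1. A gene counts as higher or lower where the ratio passes 1.5-fold.

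The respiratory chain sits in the inner mitochondrial membrane. Complexes I and II pass electrons from NADH and succinate to coenzyme Q, complex III passes them on to cytochrome c, and complex IV delivers them to oxygen. Complexes I, III and IV pump protons as they do so, and complex V, the ATP synthase, uses the returning protons to make ATP. Complex II is encoded wholly in the nucleus, whereas the others join nuclear subunits, imported from the cytosol, to a few subunits made inside the organelle from mitochondrial DNA. Activated B cells are known to enlarge their mitochondrial mass and raise oxidative phosphorylation as they grow and divide.

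The medians of the nuclear and the mitochondrial members lay on different sides of 0. Of the 91 nuclear members 69 had a log2 ratio below 0 and 22 above, with a median of −0.23. Of the 13 mitochondrial members 3 lay below 0 and 10 above, with a median of 0.07. For comparison, 51.6% of the kept genes lay below 0 and their median was −0.01. The mitochondrial median exceeded the nuclear median by 0.29, and this gap ranged from 0.27 to 0.31 over all settings tried. Rescaling a library moves both medians nearly alike, and dropping the filter keeps the same members. Those settings could therefore hardly change the gap. Summed over genes, the nuclear members took 1.88% of the total in the control library and 1.53% in the Ascl2 library, a sum ratio of 0.825. The mitochondrial members took 12.8% and 13.0%, a sum ratio of 1.03, close to the 1.02 of all kept genes. Of the mitochondrial sum, mt-Atp8 alone made up 34.7% and 33.3%, and these levels are not read as amounts of transcript, as described below.

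**Figure D1:**
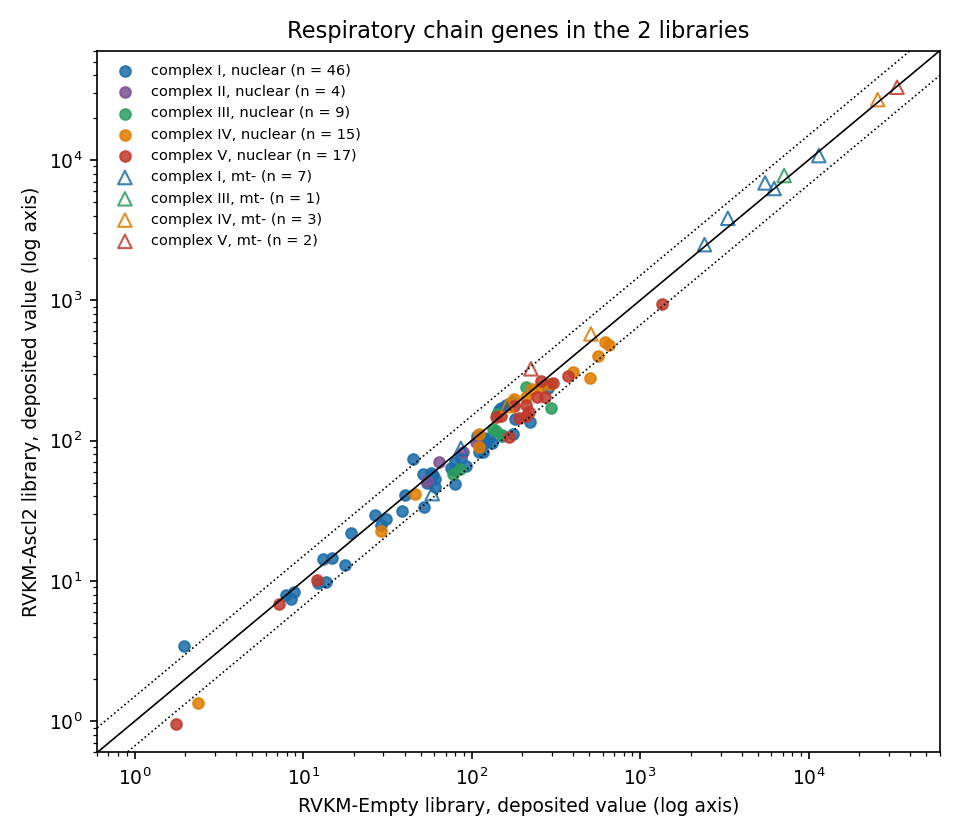
Deposited value of each of the 104 respiratory chain genes in the RVKM-Empty library (horizontal, log axis) and the RVKM-Ascl2 library (vertical, log axis), coloured by complex, with filled circles for nuclear and open triangles for mitochondrially encoded genes. The solid line marks equal values and the dotted lines a 1.5-fold difference. Most nuclear circles lie below the line of equality, and 10 of the 13 triangles lie above it.

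Few single members stood out. The Ascl2 library was at least 1.5-fold lower for 7 of the 104 members (6.73%), where 4.31% of all kept genes were, and at least 1.5-fold higher for 1 member, where 5.01% of all kept genes were. Neither share of the members is far enough from its background to be read as a result about them. No member differed 2-fold in either direction, where 1.53% of the kept genes were at least 2-fold higher and 0.716% at least 2-fold lower. The nuclear median below 0 thus came with many small ratios and few large ones.

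Nuclear respiratory chain genes are short and abundant, and other genes of that kind also had ratios below 0. The median genomic span of the nuclear members was 7131 bases, against 20008 for the kept genes. Among the 1870 other genes with a span under 10 kb and a mean value of at least 10, the median log2 ratio was −0.15 and 67.8% lay below 0. The 59 nuclear members within the same limits had a median of −0.27, with 44 below 0. With the trend of the ratio with span removed from all genes, the nuclear median was −0.13. Other families of small, abundant proteins gave similar figures. The median was −0.19 for 80 mitochondrial ribosomal protein genes, with 70 below 0, and −0.23 for 81 cytoplasmic ones, with 62 below 0. The part of gene length and abundance in the nuclear shift was not tested beyond these values.

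**Figure D2:**
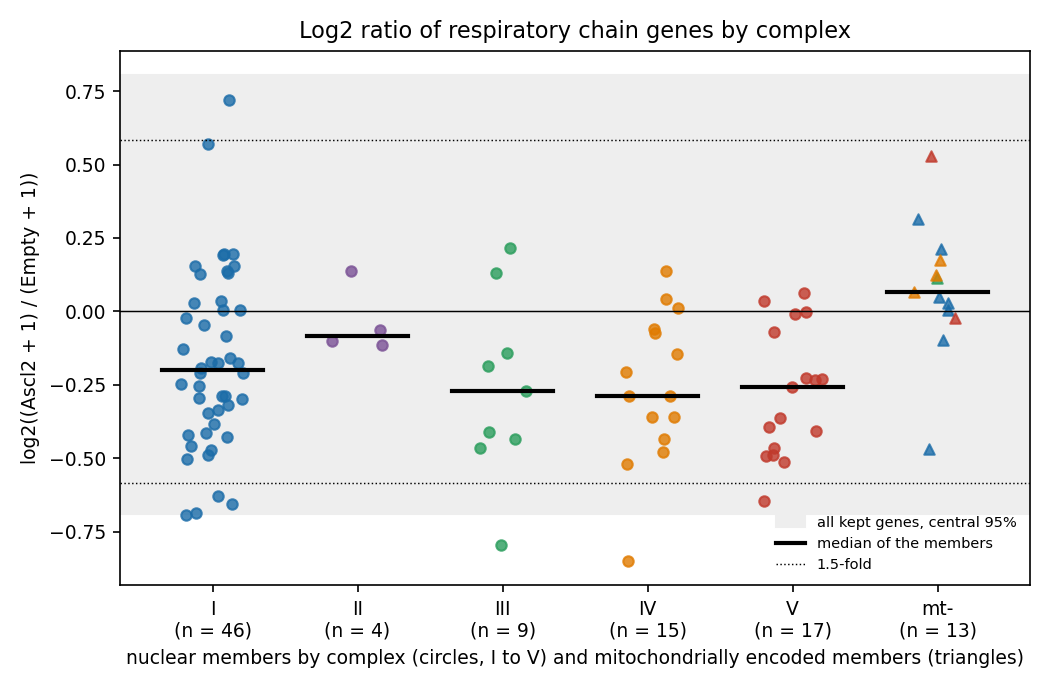
Log2 ratio of each respiratory chain gene (vertical), for the nuclear members of complexes I to V (circles) and all mitochondrially encoded members (triangles, coloured by complex). Black bars are medians of the members, dotted lines mark 1.5-fold and the grey band holds the central 95% of all kept genes. The nuclear medians lie between −0.29 and −0.08 and the mitochondrial median at 0.07.

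Complex I, NADH dehydrogenase, had 46 nuclear members here, of which 36 are subunits, 9 are assembly factors and 1 is a pseudogene. Their median log2 ratio was −0.20, with 32 below 0. The 4 lowest were all past 1.5-fold. Ndufs7, a core subunit that carries the last iron-sulphur cluster before coenzyme Q, was 80.1 in the control library and 49.1 in the Ascl2 library (log2 ratio −0.69). Ndufa6, an accessory subunit of the arm that projects into the matrix, was 221 and 137 (−0.69). Ndufa12, another accessory subunit of that arm, was 176 and 111 (−0.65), and Ndufb6, of the membrane arm, was 52.2 and 33.4 (−0.63). Their similar ratios follow from the choice of members past 1.5-fold, as no member differed 2-fold. The 4 come from both arms of the complex.

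Ndufc1, a small membrane-arm subunit, was the only member at least 1.5-fold higher, at 44.6 and 74.1 (log2 ratio 0.72). Its partner Ndufc2 was 119 and 105. The next highest ratios among nuclear complex I members were those of Ndufab1-ps, a pseudogene of the acyl carrier protein gene at 1.97 and 3.41, and of the core subunit gene Ndufv2 at 145 and 166. Among nuclear complex I members with a value of at least 5, Ndufb4 followed Ndufv2, at 19.2 and 22.1.

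The 7 nuclear core subunits, which hold the flavin and the iron-sulphur clusters, lay around 0, with 4 below it, 3 above it and a median of −0.05. Ndufv1, which binds NADH, was 40.4 and 41.2, and Ndufs1 was 26.8 and 29.5. Ndufs3 was 59.1 and 57.2, and Ndufs8 was 79.3 and 70.3. Of the core subunits, then, only Ndufs7 passed 1.5-fold. The 29 accessory subunits had a median of −0.25, with 21 below 0. Their ratios ran from that of Ndufa6 to that of Ndufc1, so the core and accessory ranges overlapped. The 9 assembly factors, which help build the complex and do not stay in it, had values from 7.95 for Ndufaf4 to 38.8 for Atp5sl in the control library. Their median ratio was −0.16, and the lowest was that of Ndufaf6, at 13.7 and 9.89. Atp5sl carries an ATP synthase name but is the complex I assembly gene now called Dmac2.

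Complex II, succinate dehydrogenase, showed the smallest shift. Sdha, the flavoprotein that oxidises succinate, was 88.7 in the control library and 82.6 in the Ascl2 library, and Sdhb, the iron-sulphur subunit, was 106 and 98.4. The membrane anchors Sdhc and Sdhd were 54.1 and 51.7, and 64.0 and 70.4. The 4 ratios lay between −0.11 and 0.14 with a median of −0.08. With the libraries scaled on the genes other than Pcdh15 and immunoglobulins, that median was 0.01, so it has no firm sign.

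Complex III, the cytochrome bc1 complex, had 9 nuclear members with a median of −0.27. Uqcr10, a small subunit that lies beside cytochrome c1, was 298 in the control library and 171 in the Ascl2 library (log2 ratio −0.80), the second lowest ratio among all members. Cyc1, the cytochrome c1 gene, was 84.8 and 62.4 (−0.44), and Uqcrfs1, the Rieske iron-sulphur protein gene, was 77.4 and 57.9 (−0.41). Both nuclear subunits with a redox centre had similar ratios, short of 1.5-fold. The large core proteins of the complex parted, with Uqcrc1 at 151 and 109 and Uqcrc2 at 142 and 155. Uqcrb, which takes part in binding coenzyme Q, had the highest ratio, at 209 and 243 (0.21). Uqcr11 was 140 and 116, Uqcrh was 291 and 255, and Uqcrq was 134 and 121.

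Complex IV, cytochrome c oxidase, had 15 nuclear members with a median of −0.29, and 12 of them lay below 0. Cox6a1, the widely expressed form of subunit 6A, had the lowest ratio of all respiratory chain members, at 507 in the control library and 281 in the Ascl2 library (log2 ratio −0.85). Cox4i1, the common form of subunit 4, was 562 and 403 (−0.48), and Cox8a, the common form of subunit 8, was 649 and 480 (−0.44). Cox7c was 397 and 309, and Cox6c was 615 and 504. The 5 most abundant nuclear subunits of the complex in the control library, named so far, all had ratios below 0. The highest ratios among the nuclear members were those of Cox5a at 179 and 197, Ndufa4 at 228 and 235, and Cox7b at 111 and 112. Ndufa4 was named as a complex I gene but its product belongs to complex IV, and it is counted there. Cox5b was 211 and 203, and Cox6b1 was 255 and 242. Cox7a2l, classed here as an assembly gene, was 292 and 253.

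Some subunits of complex IV have forms known from muscle, heart or testis. Cox6a2, the muscle form of subunit 6A, was 46.4 in the control library and 41.9 in the Ascl2 library, and it made up 8.39% and 13.0% of the Cox6a sum. The share was higher in the Ascl2 library, where Cox6a1 was lower, while Cox6a2 itself had a log2 ratio of −0.15. Cox6a2 overlaps the integrin gene Itgad in the annotation, so its reads are less certain, although Itgad itself was not listed in either library. Cox6b2, known from testis, was 29.2 and 22.5, and made up 10.3% and 8.52% of the Cox6b sum. Cox7a1, the muscle form of subunit 7A, was 2.37 and 1.35. Cox4i2, Cox8b, Cox8c and Ndufa4l2 were not listed in either library.

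Complex V, the ATP synthase, had 17 nuclear members, 15 of them below 0, with a median of −0.26. Atp5b, the catalytic beta subunit of the F1 head, was the most abundant nuclear member, at 1348 in the control library and 945 in the Ascl2 library (log2 ratio −0.51). Its partner Atp5a1, the alpha subunit, was 371 and 288 (−0.36). The delta and epsilon subunit genes Atp5d and Atp5e were 272 and 205, and 243 and 203. Atp5c1, the gamma subunit that turns inside the head, was 259 and 266. The head is built from fixed numbers of these subunits, and the ratios of its 5 genes ran from −0.51 to 0.04.

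The membrane part of complex V also held its lowest ratio. Atp5j2, subunit f, was 166 and 106 (log2 ratio −0.65), past 1.5-fold. Atp5l, subunit g, was 192 and 146, whereas Atp5k, subunit e, was 149 in both libraries. The rotating c ring is made from 3 genes that encode the same mature protein. Atp5g1 was 210 and 149, Atp5g3 was 211 and 180, and Atp5g2 was 12.1 and 10.1. Together they gave 433 and 339. In the stalk that holds the head still, Atp5o was 220 and 160 (−0.46) and Atp5h was 303 and 258. Atp5j was 140 and 146 and Atp5f1 was 179 and 178, so the stalk genes ranged from −0.46 to 0.06. The pseudogene Atp5l2-ps was 1.76 and 0.959, too low to read. The small complex V subunit genes Usmg5 and 2010107E04Rik, whose symbols fall outside the rule, were 289 and 295 (0.03), and 348 and 358 (0.04), and are in none of the counts.

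Ratios within each complex varied more than the medians between complexes. The nuclear medians were −0.20, −0.08, −0.27, −0.29 and −0.26 for complexes I to V. Within complex I alone, ratios ran from −0.69 to 0.72, and within complex IV from −0.85 to 0.14. The medians of the complexes thus lay closer together than the members within complex I or IV. In the control library the median level per gene was 68.3 for complex I, 76.3 for II, 142 for III, 228 for IV and 210 for V. In the Ascl2 library these medians were 60.4, 76.5, 121, 235 and 160, in the same order from lowest to highest. The complex IV level was that of Ndufa4 in both libraries, whereas the sum over nuclear complex IV members was 4196 in the control library and 3375 in the Ascl2 library.

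Many nuclear respiratory chain genes have processed pseudogenes with nearly the same sequence, and how reads were split between copies is not given in the sources used here. Of the nuclear members, 29 overlap the span of another RefSeq gene, among them Uqcr10 and Ndufs7. Of the 8 members past 1.5-fold, Cox6a1, Uqcr10 and Ndufc1 stayed past it under all settings tried other than the 2-fold threshold.

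The starts of these genes can be set beside their ratios. RefSeq promoter windows (GRCm38.p6, from 250 bases before to 50 after a gene's start) were found for 75 of the 91 nuclear members, 81 windows in all. Nuclear respiratory factor 1 and the ETS factor GABP are textbook activators of these genes, so the core motifs GCATGCGC (nuclear respiratory factor 1) and CCGGAAG (ETS) were searched on both strands. The motifs AAGATGGC (YY1), GGGCGGGG (Sp1) and CAGCTG, an E-box letter sequence bound by proneural helix-loop-helix factors, were searched as well. Matches of different motifs can share letters, and so can matches of the first motif on opposite strands. The upstream 250 bases are printed for Cox6a1, Uqcr10 and Ndufa6, which had 3 of the 4 lowest ratios, and for Ndufc1, which had the highest. They were chosen after the ratios were seen, and Ndufs7 was left out because its window overlaps a transfer RNA gene. Capitals mark motif matches, and all 4 are on the minus strand, written 5′ to 3′ toward the gene.
Cox6a1, chr5:115348959-115349208, minus strand: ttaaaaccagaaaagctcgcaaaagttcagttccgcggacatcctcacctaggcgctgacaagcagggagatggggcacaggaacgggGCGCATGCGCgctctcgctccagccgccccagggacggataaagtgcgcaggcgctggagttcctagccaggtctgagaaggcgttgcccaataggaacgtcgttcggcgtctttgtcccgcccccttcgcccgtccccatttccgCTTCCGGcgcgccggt
Uqcr10, chr11:4704345-4704594, minus strand: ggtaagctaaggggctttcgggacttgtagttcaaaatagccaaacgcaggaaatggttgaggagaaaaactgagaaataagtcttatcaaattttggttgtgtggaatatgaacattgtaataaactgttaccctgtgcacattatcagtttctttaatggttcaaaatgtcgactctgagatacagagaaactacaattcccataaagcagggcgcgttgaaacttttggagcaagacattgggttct
Ndufa6, chr15:82354292-82354541, minus strand: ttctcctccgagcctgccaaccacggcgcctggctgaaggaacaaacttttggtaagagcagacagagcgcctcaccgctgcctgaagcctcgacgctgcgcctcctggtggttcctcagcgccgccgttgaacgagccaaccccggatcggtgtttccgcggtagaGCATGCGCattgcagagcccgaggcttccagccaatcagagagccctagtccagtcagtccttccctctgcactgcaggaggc
Ndufc1, chr3:51408956-51409205, minus strand: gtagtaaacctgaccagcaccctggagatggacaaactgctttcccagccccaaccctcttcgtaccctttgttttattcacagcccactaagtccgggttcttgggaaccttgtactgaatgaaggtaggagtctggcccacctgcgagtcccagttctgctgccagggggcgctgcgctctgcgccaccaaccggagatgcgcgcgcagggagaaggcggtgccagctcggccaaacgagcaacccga

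Cox6a1 holds overlapping matches of the first motif on both strands, 162 and 160 bases before its start, and 1 ETS match 16 bases before it. Ndufa6 holds 1 match of the first motif, 83 bases before its start. The printed stretches of Uqcr10 and Ndufc1 hold none of the 5 motifs. The Uqcr10 stretch is also poorer in G and C than the others, at 38.8% against 59.6% to 62.8%. No searched motif is present in the printed stretches of all 3 low genes. The whole windows, with their last 50 bases after the start, add the YY1 core for Ndufc1 and the Sp1 core for Ndufa6. The YY1 core is also held by windows of Ndufs7 and Atp5j2, both at least 1.5-fold lower.

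Over all member windows, the nuclear respiratory factor 1 core was found in 12 of 81 (14.8%), and in 5.58% of the 10995 windows of kept genes. The ETS core was found in 22.2% and 19.0%, the YY1 core in 16.0% and 4.79%, and the Sp1 core in 19.8% and 32.4%. CAGCTG was found in 5 member windows (6.17%) and in 14.5% of the windows of kept genes. Of all 32851 windows, 2.71% held the nuclear respiratory factor 1 core, 8.86% the ETS core, 2.75% the YY1 core, 17.6% the Sp1 core and 16.3% CAGCTG. The 12 members with the nuclear respiratory factor 1 core had a median log2 ratio of −0.29, with 11 below 0. The 63 members without it had −0.21, with 47 below 0. The 5 members with CAGCTG (Atp5b, Ndufa8, Ndufb10, Ndufs5 and Ndufv2) had −0.30, and the 70 without it −0.22. For the other motifs the members with a match had the higher median. With and without a match these medians were −0.21 and −0.23 for ETS, −0.17 and −0.23 for YY1, and −0.15 and −0.23 for Sp1. The medians with and without each motif were therefore all below 0, though single members lay on both sides. A match describes letters in a window and says nothing on binding.

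The 13 mitochondrial members hold the proton-pumping core of complex I (mt-Nd1 to mt-Nd6 and mt-Nd4l), cytochrome b of complex III (mt-Cytb), the catalytic core of complex IV (mt-Co1 to mt-Co3) and 2 membrane subunits of complex V (mt-Atp6 and mt-Atp8). They are cut from long transcripts of the mitochondrial genome. In the control library 6 of the 20 largest values of any gene were mitochondrial, with mt-Atp8 and mt-Co1 at the top of the list. mt-Atp8 was 33476 in the control library and 32937 in the Ascl2 library, and mt-Co1 was 25685 and 26904. The next were mt-Nd1 at 11492 and 10745, mt-Cytb at 7156 and 7748, and mt-Nd2 at 6244 and 6262. The largest 3 made up 73.3% of the mitochondrial sum in the control library and 71.3% in the Ascl2 library.

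None of the 13 passed 1.5-fold. With the span trend removed mt-Nd4l (2-fold lower) and mt-Atp8 (log2 ratio −0.61) were past it, against −0.47 and −0.02 before. Their spans are 297 and 204 bases, where the trend is set by the shortest genes, so these calls depend on that trend. The highest ratio was that of mt-Atp6, at 225 and 325 (log2 ratio 0.53), followed by mt-Nd6 at 5513 and 6859 (0.32) and mt-Nd5 at 3315 and 3839 (0.21). mt-Co2 was 510 and 576 (0.17), and mt-Co3 was 163 and 178. The lowest was mt-Nd4l, at 58.4 and 41.9 (−0.47), and mt-Nd1 had −0.10. mt-Nd4 was 2410 and 2492, and mt-Nd3 was 86.4 and 88.1. mt-Nd6 is encoded on the other strand from the rest and overlaps mt-Nd5 by 14 bases. Strand use in counting is not given in the sources used here, so reads of mt-Nd6 and those of transcripts opposite to it cannot be told apart.

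Levels differed steeply along the mitochondrial genome. On the RefSeq map (GRCm38.p6), 5 genes between bases 7013 and 10173, mt-Co2, mt-Atp6, mt-Co3, mt-Nd3 and mt-Nd4l, had values from 58.4 to 510 in the control library and 41.9 to 576 in the Ascl2 library. The other 8 had 2410 to 33476 and 2492 to 32937, so the sets did not overlap in either library. mt-Atp8 (7766 to 7969) lies inside the low stretch but held the largest value of all. It overlaps mt-Atp6 (7927 to 8607) by 43 bases and is known to share a messenger RNA with it, yet its value was 149 times that of mt-Atp6 in the control library and 101 times in the Ascl2 library. mt-Nd4l (9877 to 10173) and mt-Nd4 (10167 to 11544) likewise share a transcript, and the value of mt-Nd4 was 41.3 and 59.4 times that of mt-Nd4l. Levels deposited for these genes are therefore not read as amounts of transcript.

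Nuclear copies of mitochondrial DNA are listed beside this stretch. Gm10925, a pseudogene on chromosome 1 (24613971 to 24614651), carries mt-Atp6 among its RefSeq synonyms and has the same length, 681 bases. It was 296 in the control library and 338 in the Ascl2 library, above mt-Atp6 in both. Gm10222, a pseudogene on the same chromosome (24612404 to 24612700), has the length of mt-Nd4l, 297 bases, and was 119 and 74.1, again above mt-Nd4l in both. The ends of the 2 pseudogenes lie 1951 bases apart and the starts of mt-Atp6 and mt-Nd4l 1950 bases apart, in opposite order. Added to its pseudogene, mt-Atp6 was 521 and 663, and mt-Nd4l was 177 and 116. How reads were assigned between these copies was not tested. mt-Atp6 and mt-Nd4l, which have the extreme ratios of the mitochondrial set, are uncertain for this reason. Without the 5 low genes, a choice made after the data were seen, the mitochondrial median was 0.06.

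**Figure D3:**
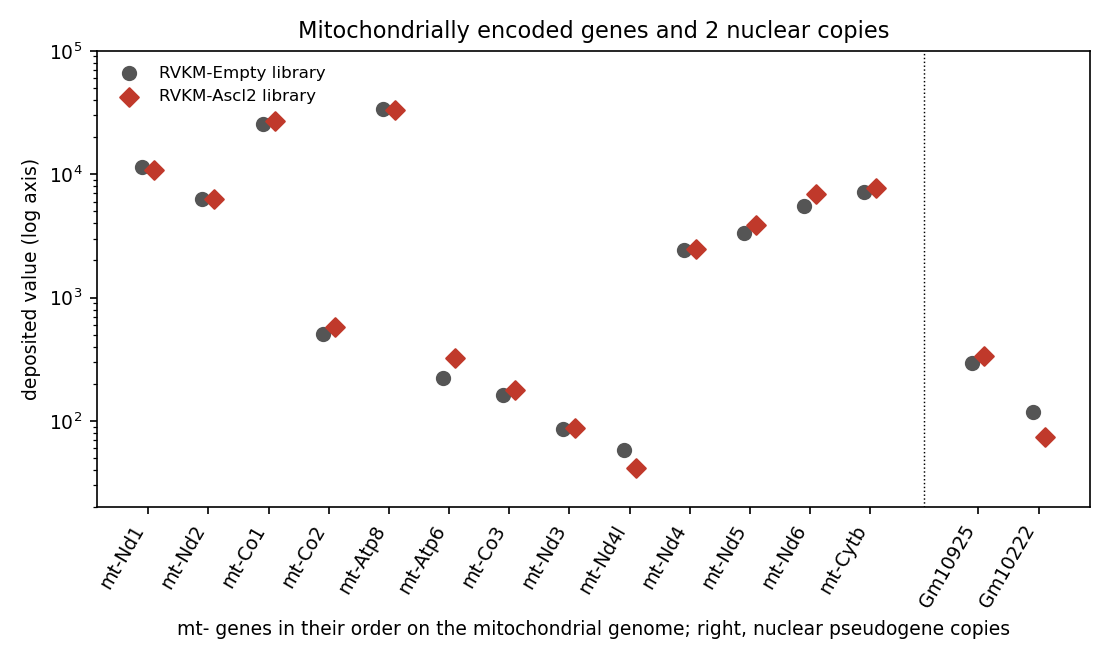
Deposited value (vertical, log axis) of the 13 mitochondrially encoded genes in their order on the mitochondrial genome, and of 2 nuclear pseudogenes right of the dotted line, in the RVKM-Empty library (grey circles) and the RVKM-Ascl2 library (red diamonds). The 5 low genes lie between 41.9 and 576 in both libraries, and mt-Atp8 among them reaches 33476 in the control library.

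Genes that build and supply the respiratory chain were taken from 6 further lists. For comparison with the counts below, 4.31% of all kept genes were at least 1.5-fold lower and 5.01% higher. Of 45 measured assembly factors outside the Ndufaf family (Atp5sl among them), 2 (4.44%) were at least 1.5-fold lower and none higher. Their median was −0.16. Lyrm7, which delivers the Rieske protein to complex III, was 6.48 in the control library and 2.97 in the Ascl2 library (log2 ratio −0.92). Its client Uqcrfs1, above, had −0.41. Higd2a, which takes part in assembling complex IV and its assemblies with other complexes (supercomplexes), was 88.6 and 57.7 (−0.61). Cox16 was 76.1 and 54.1, and Acad9, a complex I assembly factor, was 29.0 and 20.6. Cox17, the copper chaperone for complex IV, was 247 and 261.

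Among 19 genes of electron carriers and coenzyme Q synthesis, 3 (15.8%) were at least 1.5-fold lower and none higher. Their median was −0.11. Etfb, a subunit of the flavoprotein that brings electrons from fatty acid oxidation, was 117 and 70.1 (−0.73). Its partner Etfa was 66.6 and 59.6. Of the coenzyme Q synthesis genes, Coq6 was 15.2 and 9.23 and Coq4 was 5.55 and 3.34, both past 1.5-fold, and Coq8b was 9.63 and 6.52. Cycs, the cytochrome c gene, was 22.2 and 20.4.

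Genes of mitochondrial DNA transcription and maintenance stood nearest to 0, with a median of 0.02 over 29 genes and 1 (3.45%) past 1.5-fold. Slirp, which binds mitochondrial messenger RNAs together with Lrpprc and keeps them stable, was 11.7 in the control library and 31.8 in the Ascl2 library (log2 ratio 1.38). Lrpprc itself was 24.0 and 28.1 (0.22). The polymerase gene Polrmt was 11.2 and 7.90 (−0.45) and its elongation factor gene Tefm was 6.24 and 4.15 (−0.49), both short of 1.5-fold. Mterf2 was 10.7 and 15.7 (0.51), and Fastkd5 was 3.03 and 4.54 (0.46). Tfam, which packages mitochondrial DNA, was 43.3 and 43.5. Mitochondrial translation genes had a median of −0.04 over 19 genes, none of them past 1.5-fold. The elongation factor genes Tufm and Tsfm were 50.6 and 36.0, and 24.3 and 17.8, while Gfm1 was 30.0 and 23.2 and Pus1 was 32.0 and 24.9.

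Protein import, chaperone and carrier genes had a median of −0.15 over 33 genes, with 4 (12.1%) at least 1.5-fold lower and none higher. Timm13, a chaperone of the space between the membranes, was 36.1 and 20.9 (−0.76). Timm23 and Timm17b, of the inner membrane channel, were 32.2 and 20.6, and 33.4 and 21.9. Tomm40, the channel of the outer membrane, was 42.2 and 27.7. Tomm20, a receptor of the outer membrane, was 92.7 and 69.7 (−0.41), and the prohibitin genes Phb and Phb2 had −0.53 and −0.42. The citrate synthase gene Cs was 118 and 124 (0.07), and Vdac1, an outer membrane pore gene, was 143 and 137 (−0.06). The nuclear regulators had a median of −0.15 over 14 genes, with 1 (7.14%) at least 1.5-fold lower. That was Tfeb, a regulator of lysosome genes, at 32.2 and 16.9 (−0.89). Pprc1 and Esrra, which act on mitochondrial genes, were 17.6 and 11.9, and 10.9 and 7.25. Gabpb2 was 21.8 and 28.2 (0.36), and Sp1 was 16.2 and 20.9 (0.35). Of the 14 regulators, 10 lay below 0 and 4 above. Nrf1, the gene of nuclear respiratory factor 1, was 32.0 and 27.0, and Gabpa was 38.1 and 34.5. Across the 6 lists, the shares past 1.5-fold rest on 4 or fewer genes each and are not read as results about the lists.

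**Figure D4:**
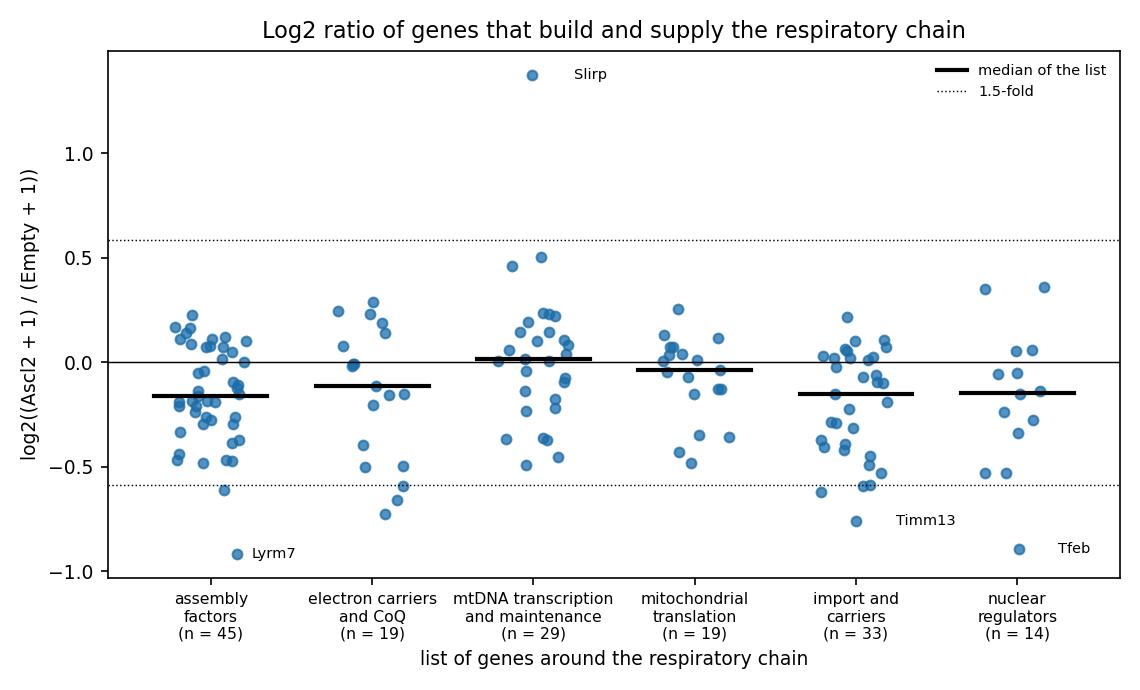
Log2 ratio (vertical) of genes in 6 lists around the respiratory chain (horizontal); each point is a gene, black bars are list medians and dotted lines mark 1.5-fold. The list medians lie between −0.16 and 0.02, and Slirp is the only gene above the upper dotted line.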

How the data were processed

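RNA was measured in 2 libraries, 1 per group. Total RNA was extracted with Trizol, per the labels' protocols. The authors deposited 1 signal value per gene, an abundance scaled for depth. Not given in the sources used here were its name (FPKM or TPM), the quantifier and the use of strand. The submitters' processing notes name the build mm10. No gene was listed at 0.

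With 1 library per group no test was run. Genes that reached 1 in either library were kept, and the log2 ratio used a pseudocount of 1. The span trend was a running median over 501 genes ordered by RefSeq span, known for 11341 kept genes. Genes named in full were the 3 highest and 3 lowest ratios of each complex and of the mitochondrial set (value of at least 5), all members past 1.5-fold, and up to 4 genes per list. Further members, and Lrpprc, Polrmt, Etfa, Cycs, Cs, Vdac1, Tomm20, Phb, Phb2, Nrf1, Gabpa, Sp1, Cox17 and Tfam, were named after their values were seen. Members and lists were chosen with earlier results of these data known. Alternatives were other pseudocounts (0.1 and 5), filters, scalings and thresholds, the mean, span-trend removal and subunits alone. The steps were tested on simulated data whose planted gene differences were larger than any seen among the members. That check does not bear on ratios as small as those described here. Python 3.11.15, numpy 2.4.6 and pandas 2.3.3 were used. The values of 2 genes are not reported here.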

Additional observations from a re-analysis of the deposited data

How the results depend on the processing

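The nuclear median stayed below 0 (−0.25 to −0.13) and the mitochondrial median above 0 (0.04 to 0.18) under all settings tried. Scaling on genes other than Pcdh15 and immunoglobulins, which raises the Ascl2 library by 0.09 on the log2 scale, gave a nuclear median of −0.13, with 4 members at least 1.5-fold lower (Cox6a1, Ndufa6, Ndufs7 and Uqcr10) and 3 higher (Ndufc1, Ndufab1-ps and mt-Atp6). It also turned the complex II median to 0.0073, and the median of all kept genes went from −0.01 to 0.07. The cause was not tested. The shares of all kept genes past 1.5-fold under this scaling are not given here, so its counts have no background. On the total without Pcdh15 and immunoglobulin genes the mitochondrial share was 13.6% in the control library and 14.9% in the Ascl2 library. Removing the span trend gave a nuclear median of −0.13 and 2 higher members, and Ndufs7, Ndufa6, Ndufb6 and Atp5j2 were then no longer past 1.5-fold. The 6 lower members then were Cox6a1, Uqcr10, Ndufa12, Atp5l2-ps, mt-Atp8 and mt-Nd4l, the mitochondrial calls resting on the trend among the shortest genes. A pseudocount of 0.1 gave 2 higher members, the second being the low pseudogene Ndufab1-ps. With a 2-fold threshold 0 members were lower and 0 higher. No paired analysis was possible because each group has 1 library. Depth is unknown, so members with values under about 5 cannot be given a precision.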
